A study of Mus musculus with 8 samples.

Results

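Transcripts of the MYC family and of the proteins that compete with it for the partner MAX were followed through knockdown of the chaperonin subunits Cct7 and Cct5 in mouse embryonic stem cells. The members were taken as a list of gene names, with no cut on their values. That list was chosen with earlier results of these data known. It holds 3 MYC genes (Myc, Mycn and Mycl) and 5 genes for MAX-partner antagonists (Mxd1, Mxd3, Mxd4, Mxi1 and Mnt), 8 of the 19896 gene IDs present in both deposited tables. All 8 averaged at least 1 FPKM, the minimum for testing, in each knockdown set against its control. FPKM, fragments per kilobase of transcript scaled to the library's depth, allows levels of genes to be compared within a library, while the overall scale of the deposited values differed between libraries and is described with the changes.

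The cells were of the E14 line. In Cct7 KD cells a hairpin RNA against Cct7 was switched on by doxycycline, and in Cct5 KD cells one against Cct5. Cct7 KD Ctr and Cct5 KD Ctr cells carried the empty inducible vector. All 4 groups, controls included, had been selected in 0.5 µg/ml puromycin for 14 days and given 2 µg/ml doxycycline for 2 days, mostly in serum with LIF. Each group has 2 libraries, and the labels do not say whether these came from separate cultures, so p-values measure the spread between these libraries, which may be technical. Positive clones were picked, but how many stand behind a group is not given. The study asked whether these subunits hold embryonic stem cells back from a totipotent state.

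The labels were checked on the targets. Cct7 had 14.4 and 17.8 FPKM in Cct7 KD cells, against 269 and 280 FPKM in Cct7 KD Ctr cells, and Cct5 had 70.8 and 73.4 FPKM in Cct5 KD cells, against 367 and 368 FPKM in Cct5 KD Ctr cells. The pluripotency markers Pou5f1, Sox2, Nanog, Esrrb and Zfp42 were present in all libraries, with a summed level of 391 to 396 FPKM in Cct7 KD, against 1728 to 1769 FPKM in Cct7 KD Ctr, and of 667 to 679 FPKM in Cct5 KD, against 1795 to 1813 FPKM in Cct5 KD Ctr. In bulk RNA, fewer cells of a type and less RNA per cell cannot be told apart. The Cct5 KD values are not independent of the Cct7 KD values. In each pair of libraries with the same number, the most common ratio between them was 1.125, only 15 genes fell below it, and this multiple of Cct7 KD accounts for 71.3% of the summed Cct5 KD FPKM. Each member's Cct5 KD result is therefore given beside the remainder, which is what is left of a Cct5 KD value once that multiple has been taken away. The remainder was set against the same Cct5 KD Ctr libraries after median-of-ratios scaling, which divides each library by the median of its ratios to the average library. None of the 8 members was among the 15 genes.

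MYC proteins are short-lived transcription factors that bind DNA as dimers with MAX, chiefly at E-box sequences, and raise the output of genes for ribosomes, nucleotides, metabolism and division. MXD1, MXI1, MXD3, MXD4 and MNT also dimerise with MAX, but bring the SIN3 corepressor and its histone deacetylases to such sites. In mouse embryonic stem cells c-MYC and N-MYC share the task of keeping cells growing and self-renewing, and MXD genes are known to come on as many cell types differentiate.

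Mycn, which codes for N-MYC, fell further than any other member in both knockdowns as deposited. It had 3.87 and 4.12 FPKM in Cct7 KD cells, against 66.6 and 64.1 FPKM in Cct7 KD Ctr cells. Both knockdown libraries lay far below both controls, at 6.11% of the control mean, a 16.4-fold lower level. On log2(FPKM + 1), the scale of all changes given here, Mycn changed by -3.73 (SE 0.04, limma with Benjamini-Hochberg adjustment, adjusted p = 8.66e-07). Only 8 of the 13588 genes tested had a lower value. Mycn lies on the minus strand of chromosome 12, at chr12:12936093-12941914 in mm10, and its promoter is shown because it carries a pair of matches to an E2F motif, marked in capitals. The sequence is that of RefSeq (GRCm38.p6, chr12:12941787-12942086, minus strand), from 250 bases before to 50 bases after the annotated start.
Mycn: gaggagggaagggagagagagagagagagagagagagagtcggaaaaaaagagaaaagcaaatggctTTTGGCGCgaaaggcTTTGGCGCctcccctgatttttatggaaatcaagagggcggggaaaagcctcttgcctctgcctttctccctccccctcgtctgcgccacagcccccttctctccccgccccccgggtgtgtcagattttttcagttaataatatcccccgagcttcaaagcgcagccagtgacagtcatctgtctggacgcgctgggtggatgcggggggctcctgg
The matches, TTTGGCGC, stand at positions -183 and -168 from the start. The motif was searched as TTTCCCGC or TTTGGCGC on both strands, and 1.56% of 32851 promoters of this length hold it.

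In Cct5 KD cells Mycn had 6.03 and 6.44 FPKM, against 72.5 and 73.9 FPKM in Cct5 KD Ctr cells. It was 11.7-fold lower, with a log2 change of -3.36 (SE 0.04, limma, adjusted p = 2.16e-07). The multiple of Cct7 KD made up 72.1% and 71.9% of these Cct5 KD values. The rest, scaled, came to 2.71 and 2.89 FPKM, against 44.8 and 45.7 FPKM in the equally scaled controls. Mycn was thus 16.2-fold lower in the remainder as well, with a log2 change of -3.61 (SE 0.04, limma, adjusted p = 7.41e-08).

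Myc, which codes for c-MYC, had 2.04 and 2.36 FPKM in Cct7 KD cells, against 6.85 and 7.23 FPKM in Cct7 KD Ctr cells. The groups did not overlap, and Myc was 3.20-fold lower (log2 change -1.33, SE 0.08, limma, adjusted p = 3.28e-05). The Cct5 KD libraries had 2.37 and 2.73 FPKM, against 9.58 and 9.93 FPKM in Cct5 KD Ctr cells, 3.83-fold lower (log2 change -1.60, SE 0.07, limma, adjusted p = 4.48e-06). Of these Cct5 KD values 96.8% and 97.0% were the multiple of Cct7 KD. The scaled remainder held only 0.123 and 0.129 FPKM, against 5.92 and 6.13 FPKM in the controls, a 47.8-fold lower level. That remainder stands for about 11.6 fragments in each library, and its log2 change was -2.64 (SE 0.06, limma, adjusted p = 2.86e-07). Myc lies on the plus strand at chr15:61985391-61990374 in mm10.

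Mycl, which codes for L-MYC, had the smallest change of the MYC genes. It had 3.77 and 3.60 FPKM in Cct7 KD cells, against 5.54 and 6.19 FPKM in Cct7 KD Ctr cells. The groups were separate, with a log2 change of -0.55 (SE 0.07, limma, adjusted p = 0.000863). In Cct5 KD cells it had 4.81 and 4.44 FPKM, against 6.21 and 6.74 FPKM in Cct5 KD Ctr cells, with a log2 change of -0.41 (limma, adjusted p = 0.00146), and of -1.51 in the remainder. The gene lies at chr4:122995652-123002485 in mm10, on the plus strand.

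**Figure D1:**
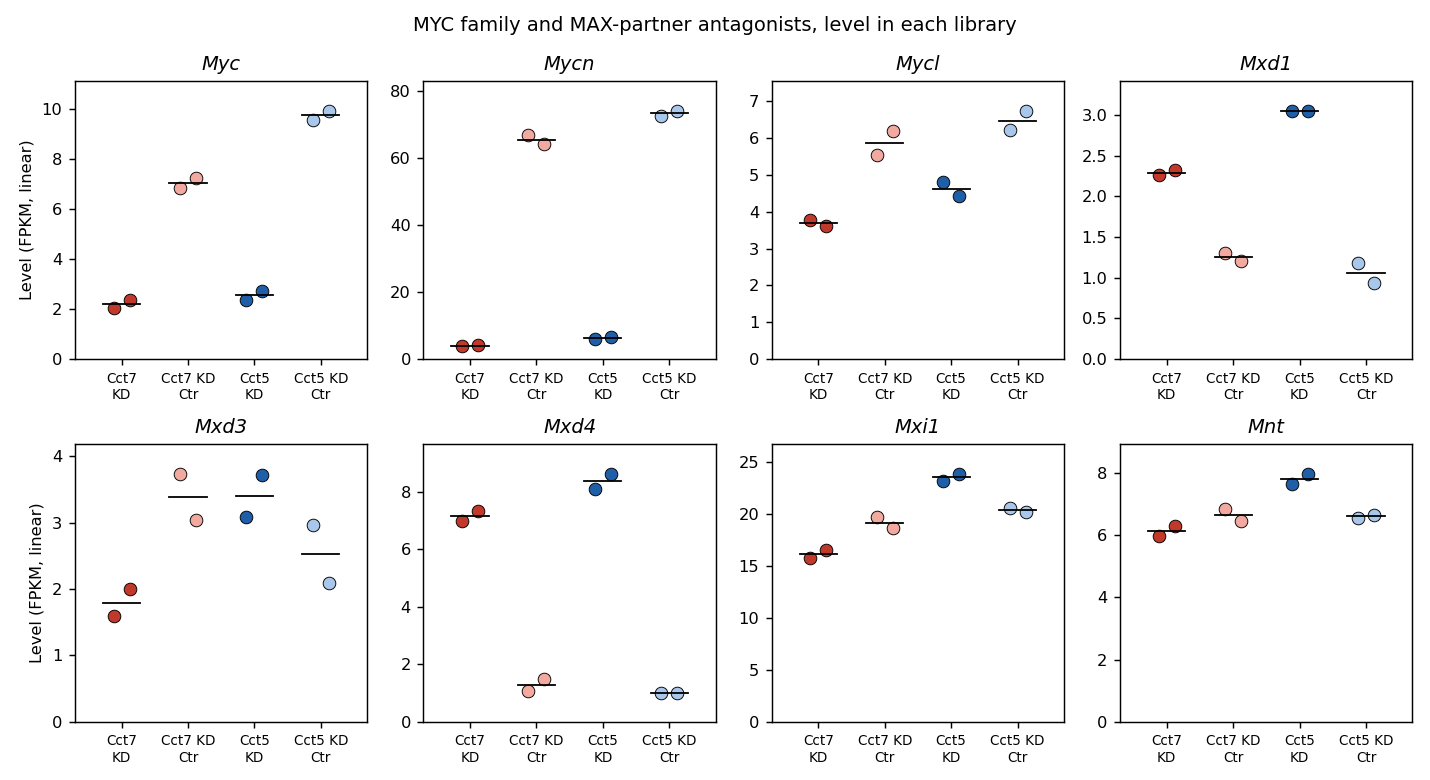
Level of each member in each library, in FPKM on a linear axis that starts at 0 and differs between panels. Points are libraries and bars the mean of 2. Mycn lies at 3.87 to 6.44 FPKM in the 4 knockdown libraries, against 64.1 to 73.9 FPKM in the 4 controls, and Mxd4 at 6.97 to 8.64 FPKM against 0.986 to 1.47 FPKM.

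Among the antagonists, Mxd4 rose most. It had 6.97 and 7.33 FPKM in Cct7 KD cells, against 1.07 and 1.47 FPKM in Cct7 KD Ctr cells. Both knockdown libraries stood well above both controls, a 5.61-fold higher level with a log2 change of 1.85 (SE 0.10, limma, adjusted p = 2.90e-05). Its level was 8.10 and 8.64 FPKM in Cct5 KD cells, against 0.986 and 0.998 FPKM in Cct5 KD Ctr cells, 8.44-fold higher (log2 change 2.23, SE 0.06, limma, adjusted p = 1.18e-06). The multiple of Cct7 KD made up 96.9% and 95.5% of the Cct5 KD values. The scaled remainder had 0.408 and 0.624 FPKM, against 0.609 and 0.616 FPKM in the controls, so the groups overlapped. It was below the minimum for testing, and without that minimum its log2 change was -0.09 (95% interval -0.29 to 0.11, limma, adjusted p = 0.337). Mxd4 lies at chr5:34173883-34187720 in mm10 on the minus strand. Its RefSeq promoter (GRCm38.p6, chr5:34187661-34187960, minus strand) is shown because it holds an E-box, CACGTG in capitals, the sequence that MAX dimers bind.
Mxd4: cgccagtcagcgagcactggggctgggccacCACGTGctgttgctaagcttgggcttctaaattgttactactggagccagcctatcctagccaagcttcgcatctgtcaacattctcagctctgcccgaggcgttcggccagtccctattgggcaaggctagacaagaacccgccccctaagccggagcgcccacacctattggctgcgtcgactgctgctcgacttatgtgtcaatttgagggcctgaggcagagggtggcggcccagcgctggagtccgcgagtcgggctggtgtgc
The E-box stands at position -219 from the start. The promoter of Mnt holds one at position -123, and 7.15% of the 32851 promoters hold this palindrome. Those of Mycn, Mycl, Mxd1, Mxd3 and Mxi1 had no match to it in this window.

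Mxd1, the founding member of its family, was the other antagonist that rose in Cct7 KD. It had 2.26 and 2.33 FPKM in Cct7 KD cells, against 1.30 and 1.20 FPKM in Cct7 KD Ctr cells. The libraries did not overlap, with a 1.83-fold higher level and a log2 change of 0.55 (SE 0.08, limma, adjusted p = 0.00131). In Cct5 KD cells it had 3.05 FPKM in both libraries, against 1.18 and 0.939 FPKM in Cct5 KD Ctr cells (log2 change 0.98, SE 0.09, limma, adjusted p = 0.000101). As for Mxd4, this change was not seen in the remainder. Scaled, Mxd1 had 0.826 and 0.693 FPKM there, against 0.728 and 0.580 FPKM in the controls, and the log2 change without the minimum was 0.09 (95% interval -0.09 to 0.27, limma, adjusted p = 0.314). The gene lies at chr6:86647042-86669161 in mm10, on the minus strand.

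Mxd3, an antagonist known from dividing cells, fell in Cct7 KD cells. It had 1.60 and 2.00 FPKM in Cct7 KD cells, against 3.74 and 3.04 FPKM in Cct7 KD Ctr cells (log2 change -0.65, SE 0.12, limma, adjusted p = 0.00338). In Cct5 KD cells it had 3.09 and 3.71 FPKM, against 2.96 and 2.09 FPKM in Cct5 KD Ctr cells. These groups were close, and the log2 change of 0.33 did not pass (SE 0.14, limma, adjusted p = 0.0688). Without Cct5 KD Ctr replicate 1 it was 0.50, and without Cct5 KD Ctr replicate 2 it was 0.15. It turned to -0.29 after median-of-ratios scaling and to -0.11 under a common FPKM total, and passed in neither (limma, adjusted p = 0.105 and 0.505). The multiple of Cct7 KD made up 58.2% and 60.5% of the Cct5 KD values. In the remainder the log2 change was 0.33, which passed with the minimum (limma, adjusted p = 0.0270) but not without it (limma, adjusted p = 0.0505). Exons of Mxd3 overlap those of Prelid1 on the opposite strand, as exons of Mxi1 overlap those of Gm10197 and exons of Mxd4 those of Gm42846. The libraries keep strand, but no source used here says whether counting used it, so the levels of these members are uncertain to that extent. Mxd3 lies at chr13:55325168-55329823 in mm10, on the minus strand.

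Mxi1, the most abundant antagonist, moved little. It had 15.8 and 16.5 FPKM in Cct7 KD cells, against 19.7 and 18.7 FPKM in Cct7 KD Ctr cells (log2 change -0.24, SE 0.04, limma, adjusted p = 0.00419). Cct5 KD cells had 23.2 and 23.9 FPKM of it, against 20.5 and 20.2 FPKM in Cct5 KD Ctr cells (log2 change 0.20, SE 0.03, limma, adjusted p = 0.00169). Though the groups were separate in both, the direction in Cct5 KD turned with scaling, to -0.59 after median-of-ratios scaling and to -0.50 in the remainder. Mxi1 lies at chr19:53310518-53375810 in mm10, on the plus strand.

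Mnt, an antagonist made in most cells that cycle or rest, had 5.99 and 6.30 FPKM in Cct7 KD cells, against 6.85 and 6.47 FPKM in Cct7 KD Ctr cells. The libraries were separate by a small margin, and the log2 change of -0.10 did not pass (95% interval -0.25 to 0.05, limma, adjusted p = 0.159). After median-of-ratios scaling it was -0.32 and passed (limma, adjusted p = 0.00319). In Cct5 KD cells Mnt had 7.64 and 7.99 FPKM, against 6.57 and 6.66 FPKM in Cct5 KD Ctr cells (log2 change 0.21, SE 0.05, limma, adjusted p = 0.00708). That sign also turned, to -0.52 after median-of-ratios scaling and to -1.05 in the remainder. Mnt lies at chr11:74830920-74845725 in mm10, on the plus strand.

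Counted together, 7 of the 8 members passed an adjusted p of 0.05 in Cct7 KD over Cct7 KD Ctr (limma), 2 higher and 5 lower. Of all 13588 genes tested, 81.4% passed, 49.3% higher and 32.0% lower, so the count itself is close to the background. The groups did not overlap for any member in either knockdown, but the share of all genes for which this held was not counted. The libraries of Cct5 KD Ctr and Cct7 KD Ctr were also separate, for every member but Mnt, and there too the share of all genes was not counted. In Cct5 KD over Cct5 KD Ctr again 7 of 8 passed, 4 higher and 3 lower, against 89.3% of 14179 genes, 78.0% higher and 11.3% lower. Where a change of 2-fold or more in FPKM + 1 was also required, 3 members were called in each knockdown (Myc, Mycn and Mxd4), against 20.1% of all genes in Cct7 KD and 33.3% in Cct5 KD. Mxd1 in Cct5 KD was 2.88-fold higher in FPKM, but its log2 change of 0.98 on that scale fell just short. After median-of-ratios scaling all 8 passed in Cct7 KD, 2 higher and 6 lower, against 81.0% of genes, 37.1% higher and 44.0% lower. In Cct5 KD 7 of 8 then passed, 2 higher and 5 lower, against 81.4% of genes, 37.7% higher and 43.7% lower. In the remainder 6 members could be tested and all passed, 1 higher (Mxd3, log2 change 0.33) and 5 lower, against 84.9% of 11688 genes, 41.6% higher and 43.3% lower. Mxd3 no longer passed in the remainder without the minimum (limma, adjusted p = 0.0505).

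The deposited Cct5 KD values are high as a whole. The median change of all tested genes was 0.15 in Cct7 KD and 0.68 in Cct5 KD, and -0.07 and -0.05 after median-of-ratios scaling. Relative to the median gene on the deposited scale, Mxi1, Mnt and Mxd3 changed by -0.48, -0.47 and -0.35 in Cct5 KD, while Mxd4 and Mxd1 changed by 1.55 and 0.30. The MYC genes fell, and Mxd4 and Mxd1 rose, on the deposited and on the scaled values of both knockdowns.

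**Figure D2:**
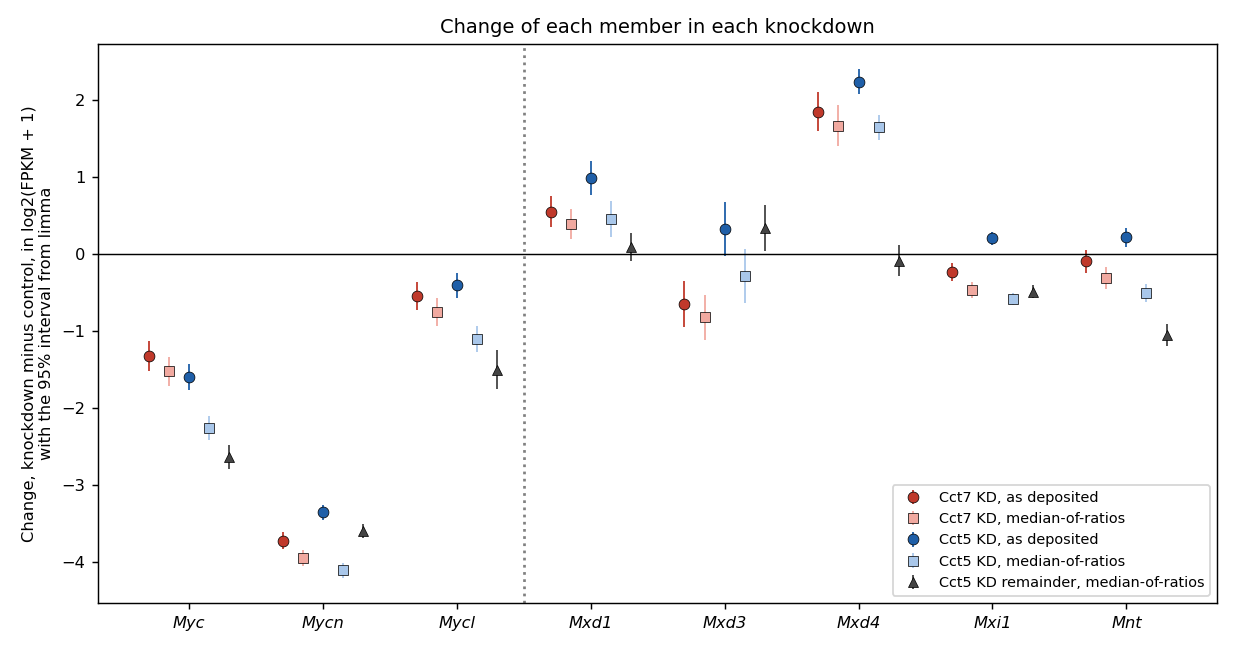
Change of each member in log2(FPKM + 1), knockdown minus control, with 95% intervals from limma, on deposited and on median-of-ratios scaled values and in the Cct5 KD remainder, shown without the minimum on low values. Myc, Mycn and Mycl lie below 0 in all 5 sets, while Mxd4 lies at 1.85 and 2.23 as deposited and at -0.09 in the remainder.

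The order of the members by level differed between knockdown and control. In both control groups Mycn was highest, followed by Mxi1 and Myc. In both knockdowns as deposited Mxi1 was highest, followed by Mxd4, Mnt and Mycn, and Myc came seventh in Cct7 KD and last in Cct5 KD. Some neighbours in this order overlapped between libraries: Mxd1 and Myc in Cct7 KD, with 2.29 ± 0.0479 and 2.20 ± 0.225 FPKM (SD, n = 2 each), and Myc and Mnt in Cct7 KD Ctr, with 7.04 ± 0.269 and 6.66 ± 0.271 FPKM (SD, n = 2 each). So did Mxd1 and Mxd4 in both control groups, and Mnt and Mycl in Cct5 KD Ctr. In the controls Mycn lay far above every other member. The Cct5 KD order includes the multiple of Cct7 KD, and the remainder had another order. Scaled, Mxi1 was highest there (8.77 and 8.50 FPKM), followed by Mycn (2.71 and 2.89 FPKM) and Mxd3 (2.08 and 2.34 FPKM). Mxd4 had only 0.408 and 0.624 FPKM there, and Myc was lowest.

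In both knockdowns as deposited, Mycn fell by more than Myc within the same libraries. The ratio of Mycn to Myc was 1.90 and 1.75 in Cct7 KD, against 9.73 and 8.87 in Cct7 KD Ctr. It was 2.55 and 2.36 in Cct5 KD, against 7.57 and 7.45 in Cct5 KD Ctr. On the log2 scale, with 1 FPKM added to each gene, the ratio changed by -2.40 in Cct7 KD and by -1.76 in Cct5 KD. The two-sided exact permutation p was 0.333 in each comparison, the smallest that 2 libraries against 2 allow. The ratios of knockdown and control libraries did not overlap in either comparison. The remainder went the other way: Myc was 47.8-fold and Mycn 16.2-fold lower there, and the ratio of Mycn to Myc was 22.0 and 22.4 in the remainder, against 7.57 and 7.45 in Cct5 KD Ctr, with Myc at about 11.6 fragments per library. Mycn supplied 40.0% and 40.9% of the summed MYC FPKM in Cct7 KD, against 84.3% and 82.7% in Cct7 KD Ctr. The Cct5 KD shares, with the multiple of Cct7 KD included, were 45.7% and 47.3%, against 82.1% and 81.6% in Cct5 KD Ctr. In the unscaled remainder Mycn had 1.68 and 1.81 FPKM, Mycl 0.569 and 0.385 FPKM and Myc 0.0763 and 0.0809 FPKM. Mycn thus made up most of the MYC FPKM there, as in the controls.

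The summed level of the 3 MYC genes was 9.68 and 10.1 FPKM in Cct7 KD, against 79.0 and 77.5 FPKM in Cct7 KD Ctr. The 5 antagonists summed to 32.6 and 34.5 FPKM in Cct7 KD, against 32.6 and 30.9 FPKM in Cct7 KD Ctr, so the sums were close and their makeup differed. Mxd4 made up 21.4% and 21.3% of it in Cct7 KD, against 3.29% and 4.77% in Cct7 KD Ctr. Antagonist transcripts were thus 3.37 and 3.42 times the MYC transcripts in Cct7 KD, against 0.413 and 0.398 times in Cct7 KD Ctr. In Cct5 KD the ratio was 3.41 and 3.48, against 0.365 and 0.341 in Cct5 KD Ctr, with antagonist sums of 45.0 and 47.3 FPKM against 32.2 and 30.9 FPKM. These sums stand on unlike scales, since all genes summed to 745912 and 744177 FPKM in Cct5 KD, against 495553 and 496684 FPKM in Cct5 KD Ctr. The log2 ratio changed by 3.06 in Cct7 KD and by 3.29 in Cct5 KD (two-sided exact permutation p = 0.333 each, the smallest possible), and by 3.38 in the remainder. There Mxi1 and Mnt were lower (log2 change -0.50 and -1.05) and Mxd3 changed by 0.33, while Mxd4 and Mxd1 lay below the minimum for testing. These are transcript levels, and protein was not measured.

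**Figure D3:**
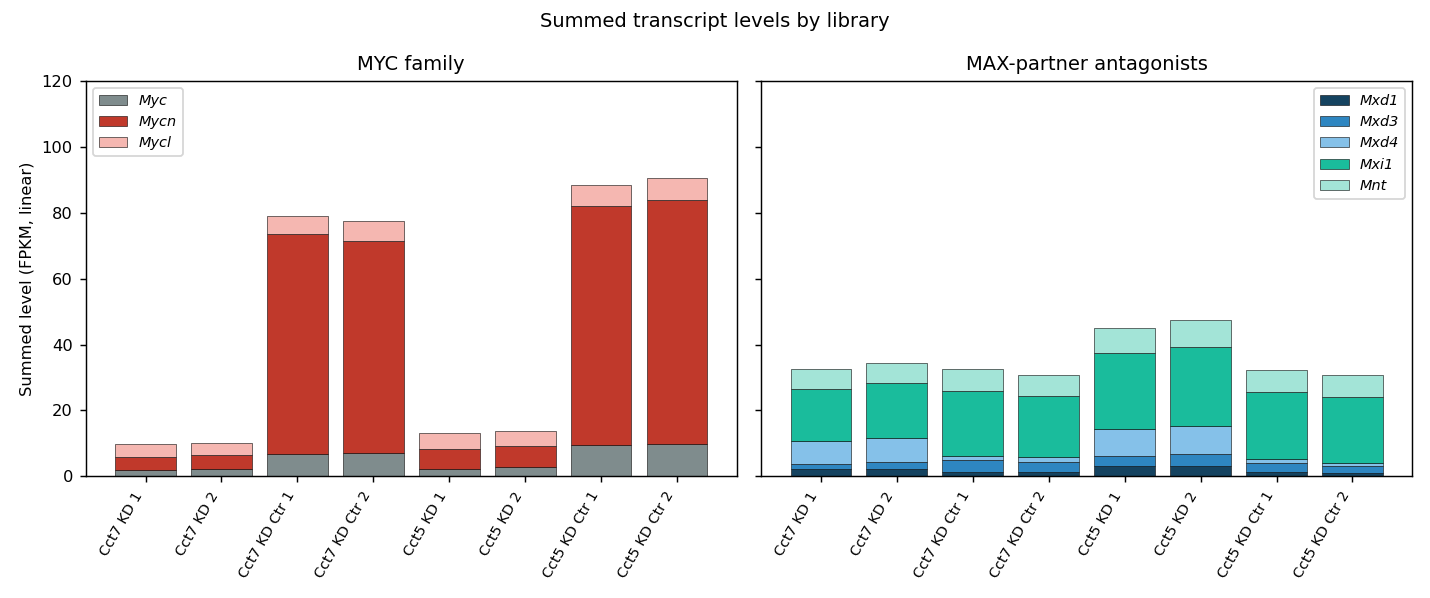
Summed FPKM of the 3 MYC genes (left) and the 5 antagonists (right) in each library, stacked by gene from 0. MYC sums lie at 9.68 to 13.6 FPKM in the knockdown libraries, against 77.5 to 90.6 FPKM in the controls, and the Mycn share makes most of the difference.

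The control groups were compared as a check on the tables. Myc had 9.58 and 9.93 FPKM in Cct5 KD Ctr, against 6.85 and 7.23 FPKM in Cct7 KD Ctr. The libraries of these groups were separate for Myc and for every other member but Mnt. The share of all genes separate in this way was not counted, so the separation is not read as a trait of the members. No member passed, and 0 of 12762 genes did (0.0%, limma, smallest adjusted p = 0.0578), while 2296 had an unadjusted p under 0.05. The log2 change was 0.42 for Myc (limma, adjusted p = 0.102), 0.16 for Mycn and between -0.32 (Mxd3) and 0.12 for the others. Only 43 of the 12762 genes had a higher value than Myc, and 204 had a lower value than Mxd3. With all 8 libraries in 1 fit, Myc passed (limma, adjusted p = 0.0367).

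MAX, the shared partner, and the parallel MLX branch, which responds to nutrients, moved less than Mycn. Max had 48.9 and 47.9 FPKM in Cct7 KD, against 58.8 and 63.0 FPKM in Cct7 KD Ctr (log2 change -0.32, limma, adjusted p = 0.000693). In Cct5 KD the log2 change of Max was 0.09, but -0.73 after median-of-ratios scaling and -0.87 in the remainder. Of the 5 genes listed for MAX and MLX, Max, Mlx (-0.33) and Mga (-0.50), a MAX partner of repressive complexes, fell in Cct7 KD. Mlxip, an MLX partner, rose by 0.36, and Mlxipl, the glucose-responsive MLX partner, had 25.8 to 26.2 FPKM in Cct7 KD, against 25.4 FPKM in both Cct7 KD Ctr libraries, and did not pass (limma, adjusted p = 0.358). Mlxipl had 56.8 to 57.9 FPKM in Cct5 KD, against 21.4 to 22.7 FPKM in Cct5 KD Ctr, with a log2 change of 1.34 and of 1.66 in the remainder.

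Of 14 coactivator genes that MYC proteins work with, 10 fell, 3 rose and 1 did not pass in Cct7 KD, with a median change of -0.20 beside 0.15 for all genes. Of all genes 32.0% were lower and 49.3% higher. Kat2a, a histone acetyltransferase, fell by 1.55, with 18.1 to 19.2 FPKM in Cct7 KD, against 55.7 to 57.6 FPKM in Cct7 KD Ctr. Ruvbl2, a helicase of chromatin remodellers, changed by -1.15. Paf1, of the elongation complex of that name, and Ccnt1, the cyclin of P-TEFb, rose by 0.56 and 0.31, and Ccnt1 no longer passed after scaling (0.07, limma, adjusted p = 0.25). After median-of-ratios scaling 11 fell and 1 rose, beside 44.0% of all genes lower and 37.1% higher.

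Of 16 SIN3 and NCOR corepressor genes, of which SIN3 serves the antagonists, 15 were tested: 7 fell, 5 rose and 3 did not pass in Cct7 KD (median -0.06), where 32.0% of all genes were lower and 49.3% higher. After scaling 11 fell and 3 rose, beside 44.0% of all genes lower and 37.1% higher. Ncor1 and Sin3a, scaffolds of their complexes, changed by -0.86 and -0.61. Sap18 and Rbbp7, subunits bound to them, changed by 0.71 and 0.55. Sin3a had 45.1 to 46.0 FPKM in Cct7 KD, against 68.6 to 71.2 FPKM in Cct7 KD Ctr.

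Genes that set the life of MYC proteins differed widely. Of 16, 8 rose, 5 fell and 3 did not pass in Cct7 KD (median 0.11), close to the 49.3% of all genes higher and 32.0% lower. After scaling 3 rose and 10 fell, beside 37.1% of all genes higher and 44.0% lower. Usp28, a deubiquitinase that spares MYC from the ligase FBXW7, had 26.3 to 27.1 FPKM in Cct7 KD, against 129 to 131 FPKM in Cct7 KD Ctr (log2 change -2.24, limma, adjusted p = 1.03e-06). Fbxw7, the substrate receptor of that ligase, had 18.7 to 19.4 FPKM in Cct7 KD, against 7.56 to 7.59 FPKM in Cct7 KD Ctr (log2 change 1.23). Gsk3b, a kinase that marks MYC for it, rose by 1.13, and Aurka, a kinase that shields N-MYC, fell to 34.1 to 34.2 FPKM in Cct7 KD, against 68.6 to 69.8 FPKM in Cct7 KD Ctr. Usp28, Aurka, Fbxw7 and Gsk3b kept these signs on the deposited and scaled values of both knockdowns. In the remainder Usp28 changed by -1.16, Gsk3b by 0.31 and Fbxw7 by -0.05, which did not pass (limma, adjusted p = 0.37).

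Of 48 genes that MYC is known to activate, 47 were tested, and in Cct7 KD 37 fell, 6 rose and 4 did not pass (median -0.53, beside 0.15 for all genes). Of all genes 32.0% were lower and 49.3% higher. Srm, spermidine synthase, had 24.6 to 25.6 FPKM in Cct7 KD, against 83.7 to 90.5 FPKM in Cct7 KD Ctr (log2 change -1.75, limma, adjusted p = 3.54e-06). Ccnd1, cyclin D1, changed by -1.61. The glucose transporter Slc2a1 went the other way, with 516 to 541 FPKM in Cct7 KD, against 171 to 172 FPKM in Cct7 KD Ctr (log2 change 1.61), as did the transferrin receptor Tfrc (0.49). In Cct5 KD 22 fell and 19 rose, beside 11.3% of all genes lower and 78.0% higher. After median-of-ratios scaling 41 fell and 3 rose in each knockdown. Of all genes 44.0% were then lower and 37.1% higher in Cct7 KD, and 43.7% lower and 37.7% higher in Cct5 KD. In the remainder 37 fell and 9 rose, beside 43.3% of all genes lower and 41.6% higher. Of 41 of these genes with a RefSeq promoter, 11 held CACGTG in the window (26.8%), against 8.09% of 27025 genes. The median change in Cct7 KD was -0.47 for the 11 with it and -0.53 for 29 tested genes without it.

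Of 11 genes that MYC is known to repress, 10 were tested, and in Cct7 KD 8 rose, 1 fell and 1 did not pass (median 0.62). Of all genes 49.3% were higher and 32.0% lower. Ddit3, a stress-response factor, had 34.0 to 34.1 FPKM in Cct7 KD, against 4.00 to 4.12 FPKM in Cct7 KD Ctr (log2 change 2.79, limma, adjusted p = 1.16e-06). Ndrg1, named for its repression by N-MYC, rose by 1.65, and its relative Ndrg2 changed by -1.79. In Cct5 KD 9 rose and Ndrg2 did not pass, where 78.0% of all genes were higher. After median-of-ratios scaling of Cct5 KD 7 rose, 1 fell and 2 did not pass, beside 37.7% of all genes higher. In the remainder 8 could be tested and 7 rose, Ndrg2 among them (0.64) and Ddit3 by 4.24, beside 41.6% of all genes higher.

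Of 15 genes that act on MYC genes, 8 fell, 6 rose and 1 did not pass in Cct7 KD (median -0.58). Of all genes 32.0% were lower and 49.3% higher. Lef1, a WNT effector, had 0.615 to 0.760 FPKM in Cct7 KD, against 5.58 to 5.78 FPKM in Cct7 KD Ctr (log2 change -1.99, limma, adjusted p = 1.07e-05). Gli2, the hedgehog effector, changed by -1.90. Trp53, which codes for p53, and Foxo3, a factor of quiescence, rose by 1.02 and 0.95. Both rose in the remainder too, by 1.54 and 0.32, and Gli2 changed by -1.47 there.

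**Figure D4:**
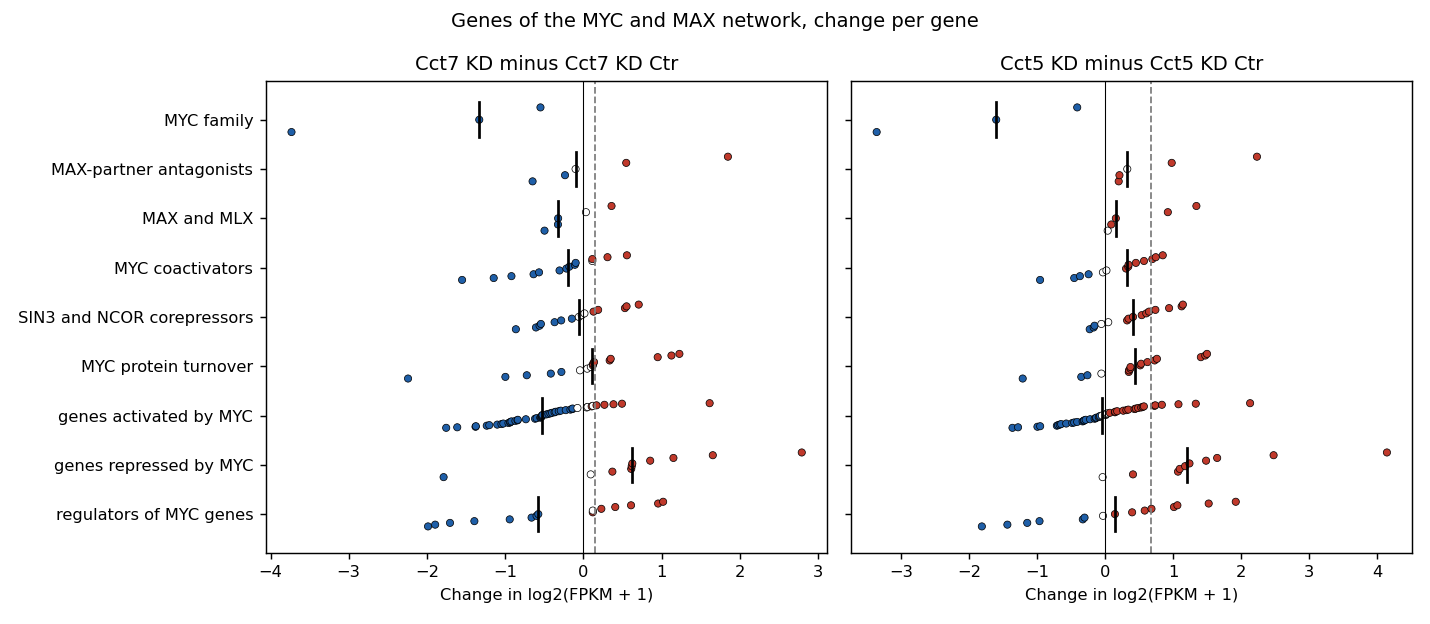
Change in log2(FPKM + 1) of each tested gene of the network lists in Cct7 KD (left) and Cct5 KD (right), as deposited. Red points passed and are higher, blue points passed and are lower, open points did not pass, black bars are list medians and the dashed line is the median of all tested genes. In Cct7 KD the median is -0.53 for genes activated by MYC and 0.62 for genes repressed by MYC, beside 0.15 for all genes.

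The nearest protein-coding genes on the chromosome moved in both directions. Of 16 neighbours 12 were tested in Cct7 KD, and 7 rose, 4 fell and 1 did not pass, close to the 49.3% of all genes higher and 32.0% lower. Ddx1, the neighbour of Mycn on one side, had 51.9 to 52.4 FPKM in Cct7 KD, against 64.3 to 64.9 FPKM in Cct7 KD Ctr (log2 change -0.30). Fam49a on the other side rose by 0.46. Beside Mxd4, Zfyve28 rose by 0.61 and Haus3 changed by -0.01 (limma, adjusted p = 0.838).

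Genes whose pattern over the 8 libraries was most like that of Mycn were sought among 13840 genes, by the root mean square difference of their centred log2(FPKM + 1). Genes with Gm, Rik or -ps symbols were passed over, for Mycn and for Myc. The nearest others to Mycn were Tdh (0.0391), Lefty1 (0.0963), Fgf15 (0.110), Dppa3 (0.129) and Platr10 (0.139). Tdh, the threonine dehydrogenase of mouse embryonic stem cells, averaged 7.88 FPKM in Cct7 KD, against 119 FPKM in Cct7 KD Ctr, and 11.9 FPKM in Cct5 KD, against 139 FPKM in Cct5 KD Ctr. Those most like Myc were Pramel6 (0.108), Tgm3 (0.115), Aoah (0.133), Enox1 (0.140) and Gbp4 (0.141). All 8 libraries entered this measure, including the Cct5 KD libraries that hold the multiple of Cct7 KD.

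Markers of other cell states moved with these results. The 5 pluripotency markers were lower in both knockdowns. The 5 markers of 2-cell-like cells were all higher in Cct7 KD, with a sum of 67.7 to 69.4 FPKM in Cct7 KD, against 14.0 to 14.1 FPKM in Cct7 KD Ctr, and all higher in Cct5 KD, with 77.0 to 79.0 FPKM against 12.9 to 14.5 FPKM in Cct5 KD Ctr. The 7 trophoblast markers summed to 209 to 211 FPKM in Cct7 KD, against 27.6 to 29.0 FPKM in Cct7 KD Ctr, mostly from Krt8 and Krt18, while the trophoblast factor Cdx2 was at or below 0.213 FPKM in all 4 libraries and the trophoblast factor Eomes was lower in both knockdowns (log2 change -0.36 in Cct7 KD and -0.32 in Cct5 KD). The trophoblast factor Hand1 was higher in both knockdowns as deposited, and did not pass in either after median-of-ratios scaling. The trophoblast sum was 242 to 244 FPKM in Cct5 KD, against 26.6 to 27.8 FPKM in Cct5 KD Ctr, while Krt8 and Krt18 fell in the remainder (-0.31 and -0.46). Primitive endoderm markers summed to 9.64 to 10.5 FPKM in Cct7 KD, against 5.25 to 5.40 FPKM in Cct7 KD Ctr, neural markers to under 15 FPKM against 19.2 to 20.5 FPKM, and mesoderm markers to under 1 FPKM in each. Of the primitive endoderm markers tested in Cct7 KD, Gata6, Pdgfra and Dab2 were higher, but Dab2 did not pass after scaling and was lower in the remainder. Of the neural markers tested in Cct7 KD as deposited, Tubb3 was lower, Nes was higher and Pax6 did not pass. Fibroblast markers summed to 188 to 195 FPKM in Cct7 KD, against 207 to 212 FPKM in Cct7 KD Ctr, but to 296 to 305 FPKM in Cct5 KD, against 191 to 196 FPKM in Cct5 KD Ctr. The matrix gene Fn1 and the filament gene Vim rose in Cct5 KD (log2 change 0.40 and 1.52) and in the remainder (0.18 and 0.49). Thy1, the other fibroblast marker tested, went the other way and was lower in Cct5 KD as deposited, after scaling and in the remainder. Fn1 changed by -0.42 in Cct5 KD after median-of-ratios scaling, and the fibroblast collagen gene Col3a1 was listed at 0 in both Cct5 KD libraries. In the remainder, as with Mxd4 and Mxd1, none of the 2-cell-like markers tested rose: 2 of the 5 could be tested, and both fell. The part of these cell states in the levels of the MYC family and its antagonists was not tested.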

How the data were processed

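Poly(A) RNA of 8 libraries was read as 150 bp pairs from strand-keeping libraries, per the labels' protocols. Gene-level FPKM were deposited, a table per knockdown with its control. HTSeq and mm10 are named in the submitters' processing notes; versions, aligner, annotation and gene lengths stand in none of the sources used here. The members and gene lists were chosen with earlier results of these data known. IDs listed 2 times were left out. Symbols came from GENCODE M21. Named genes were all members, all MAX and MLX genes, the 2 largest rises and 2 largest falls past the threshold of each list in Cct7 KD, the neighbours, and the 5 genes most like Mycn and Myc. Among the last, Gm, Rik and -ps symbols were passed over.

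The limma package 3.58.1 (R 4.3.3, trended eBayes) was fitted to log2(FPKM + 1) of genes averaging 1 FPKM or more in the comparison, with Benjamini-Hochberg adjustment over all genes tested and a threshold of 0.05. Fold changes on this scale understate those of low genes. Ratios within libraries were tested with exact permutation tests (SciPy 1.17.1). The limma fit was tested on simulated data. Alternatives were median-of-ratios scaling, a common FPKM total, no minimum, 0.1 as pseudocount, a 2-fold minimum change in FPKM + 1, a replicate block, all 8 libraries in 1 fit, leaving out each library, and the remainder. The remainder without the minimum, and its Mycn to Myc ratio without a pseudocount, were added after seeing the data.

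Depth was estimated from the step of which FPKM values are whole multiples. It came to 20.8 and 18.9 M fragments for Cct7 KD, 22.4 and 23.4 M for Cct7 KD Ctr, and 54.9 and 21.2 M for Cct5 KD Ctr. For Cct5 KD no such step was found, with 68.8% and 50.2% of values whole within 0.05 of a fragment, against 99.0% and 99.1% in the remainder. With GENCODE exon lengths, members had from about 78.8 fragments (Mxd3, Cct7 KD 1, counting error 11.3%) to 13112 (Mycn, Cct5 KD Ctr 1, 0.873%).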

Additional observations from a re-analysis of the deposited data

Results flagged for a closer look

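For 3 antagonists both Cct5 KD libraries lay above and both Cct7 KD libraries lay below their own controls. Of these 6 changes, Mxd3 in Cct5 KD (limma, adjusted p = 0.0688) and Mnt in Cct7 KD (limma, adjusted p = 0.159) did not pass. The log2 change in Cct5 KD minus that in Cct7 KD was 0.98 for Mxd3, 0.44 for Mxi1 and 0.31 for Mnt. The difference was not tested, since Cct5 KD values contain the Cct7 KD values. After median-of-ratios scaling the changes in Cct5 KD and Cct7 KD had the same sign for each: -0.29 and -0.83 for Mxd3, -0.59 and -0.47 for Mxi1, and -0.52 and -0.32 for Mnt. The scaled Cct5 KD change of Mxd3 did not pass (limma, adjusted p = 0.105). In the remainder Mxd3 changed by 0.33, which passed with the minimum (limma, adjusted p = 0.0270) but not without it (limma, adjusted p = 0.0505).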

How the results depend on the processing

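The MYC genes kept their direction and passed in both knockdowns under each alternative that gave a value, except that Mycl did not pass where a 2-fold change was required. Of 254 values of single members under an alternative, 235 kept direction and side of the threshold, 14 changed sign, 4 passed only under the alternative and 1 no longer passed. Cct5 KD signs turned under median-of-ratios scaling, a common total and the remainder: Mxd3 to -0.29 and -0.11 under the scalings, Mxi1 to -0.59, -0.36 and -0.50, and Mnt to -0.52, -0.30 and -1.05. In the remainder without the minimum, Mxd4 changed by -0.093. Mnt, at -0.01 between the controls, had 0.0060 after median-of-ratios scaling and -0.044 to 0.028 without single libraries, 0.00084 among them. With a fold of at least 2 in FPKM + 1, 3 members were called in each knockdown. Between the controls 1 member passed with all 8 libraries in 1 fit. The antagonist to MYC log2 ratio changed by 3.11 (Cct7 KD) and 3.36 (Cct5 KD) without Mnt, by 2.15 and 2.58 as a mean of log2 values, and by 3.38 in the remainder. The Mycn to Myc log2 ratio in Cct5 KD changed by -1.63 with a pseudocount of 0.1, by -1.85 after scaling and by -1.44 in the remainder. The last value rests on the 1 FPKM added to both genes, since without it the ratio in the remainder changed by 1.56, in the opposite direction. Leaving out single libraries gave 7 called members in Cct7 KD, 7 to 8 in Cct5 KD and 0 between the controls. Same-numbered libraries did not deviate together (r = -0.04, -0.01 and 0.04 in the 3 comparisons), so the numbers were not taken to pair knockdown with control libraries, and with the replicate block 7, 7 and 0 members were called. The causes were not tested. With 2 libraries a group, precision is limited, and Myc in the remainder rests on about 11.6 fragments per library.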
